A study of Homo sapiens with 6 samples.

Results

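The genes described here encode proteins of the mitochondrial ribosome. They were chosen by symbol, as every gene whose platform symbol begins with MRPL or MRPS and a number and which is measured by probe sets that carry 1 symbol. This gave 75 of the 18132 genes tested, read by 166 probe sets. By symbol 47 belong to the large subunit and 27 to the small subunit, and the remaining 1, MRPL20-AS1, carries the symbol of an antisense RNA gene. MRPL23, MRPL53, MRPS24 and MRPS31P5 match only through probe sets with several symbols and are not analysed here. The samples are Huh7 cells, an established line from a human hepatocellular carcinoma, in logarithmic growth. The 3 arrays labelled KCa3.1 silenced are also described as a knockdown of that channel, a calcium-activated potassium channel encoded by KCNN4, and the other 3 are labelled as control cells. All 6 arrays share the cell line and growth phase. The labels do not say how the channel was silenced, how long before harvest, or what the control cells received, and they do not tie the replicates to separate cultures, so every p-value below measures a spread between arrays that may be technical.

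Mitochondria keep a small genome whose protein products are core subunits of the respiratory chain and the ATP synthase, and these are made on the organelle's own ribosome. The ribosomal RNAs come from mitochondrial DNA, while every protein of the mitoribosome is encoded in the nucleus, made in the cytosol and imported. The small subunit binds and decodes the messenger RNA and the large subunit joins the amino acids. Some of the proteins have a counterpart in the bacterial ribosome and others were added in mitochondrial evolution. A symbol does not always give the place of a protein, since MRPS30 and MRPS18A reside in the large subunit.

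Values are log2 values centred per probe set on a baseline that the sources used here do not state, so they show differences between arrays and no expression level. For the same reason the hepatocyte markers could not be used to check the cell type from levels. KCNN4, the gene named as silenced, had values of -0.05, 0.09 and 0.01 in the silenced arrays, against -0.01, 0.13 and -0.07 in the control arrays. The groups overlapped, and the difference of -0.0003 had a 95% interval of -0.16 to 0.16 (limma adjusted p = 0.999, two-sided exact permutation p = 1 with a smallest possible p of 0.1). All 3 of its probe sets are of the kind (suffix _x_at) whose probes can match other transcripts, and whether they read KCNN4 alone was not tested. Their signal was not lower where the label says silenced, so below a silenced array means one that carries this label. Across probe sets, which are not independent of each other, Pearson's r lay between 0.406 and 0.67 for pairs within a label and between -0.273 and 0.068 for pairs across labels.

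The promoters of the 4 members with the largest rises are shown first, because these genes carry most of what was found and because shared promoter elements are a feature the choice of genes did not use. Each runs 5′ to 3′ from 250 bases before to 50 bases after the annotated start (RefSeq, GRCh38.p14). Capitals mark matches to CCGGAAG, the core bound by ETS factors such as GABP, or to a core form of the NRF1 element, on either strand.
MRPL33 (chr2:27771469-27771768, plus strand): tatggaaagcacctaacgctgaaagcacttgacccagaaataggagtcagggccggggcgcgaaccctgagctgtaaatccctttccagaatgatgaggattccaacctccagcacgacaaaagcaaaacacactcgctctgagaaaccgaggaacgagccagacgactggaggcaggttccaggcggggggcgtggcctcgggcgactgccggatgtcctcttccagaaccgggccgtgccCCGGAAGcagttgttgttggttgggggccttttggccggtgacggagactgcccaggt
MRPL30 (chr2:99180934-99181233, plus strand): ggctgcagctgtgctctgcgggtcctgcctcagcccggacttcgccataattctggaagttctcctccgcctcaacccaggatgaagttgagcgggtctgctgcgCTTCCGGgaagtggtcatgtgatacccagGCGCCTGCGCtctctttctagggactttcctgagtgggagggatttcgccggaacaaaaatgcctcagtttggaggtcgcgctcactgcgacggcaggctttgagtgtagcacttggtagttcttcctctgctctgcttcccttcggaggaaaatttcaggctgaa
MRPL3 (chr3:131502922-131503221, minus strand): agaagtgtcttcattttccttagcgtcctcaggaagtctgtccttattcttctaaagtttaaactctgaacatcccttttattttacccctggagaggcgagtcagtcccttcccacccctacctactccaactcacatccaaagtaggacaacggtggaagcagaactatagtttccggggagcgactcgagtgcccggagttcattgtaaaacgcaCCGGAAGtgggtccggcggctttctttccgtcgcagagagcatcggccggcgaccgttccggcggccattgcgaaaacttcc
MRPS25 (chr3:15065266-15065565, minus strand): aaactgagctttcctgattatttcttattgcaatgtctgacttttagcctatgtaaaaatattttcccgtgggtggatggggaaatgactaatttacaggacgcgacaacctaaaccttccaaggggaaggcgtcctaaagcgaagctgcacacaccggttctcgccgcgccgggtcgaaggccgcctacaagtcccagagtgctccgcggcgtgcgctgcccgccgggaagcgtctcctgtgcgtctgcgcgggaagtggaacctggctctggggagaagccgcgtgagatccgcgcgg
Counted from the start, the first base of the ETS core lay at -8 in MRPL33 and at -32 in MRPL3. In MRPL30 both cores were read from the other strand, the ETS core at -145 and the NRF1 core at -116. MRPS25 held none of the motifs searched. A match shows only that these letters are in the window.

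Over the family, 4 motifs were searched in the 68 members that have an entry in the promoter table. Both strands were read. The ETS core CCGGAAG was in 42.6% of member promoters and in 10.7% of all 27305 promoters in the table. AAGATGGC, the core of the YY1 element, was in 27.9% of member promoters and 3.03% of all. The NRF1 core was in 11.8% of member promoters and 6.28% of all, and CACGTG, the E-box bound by MYC, in 8.82% of member promoters and 7.43% of all. Among tested genes alone the background shares were 14.6% for the ETS core, 4.04% for the YY1 core, 8.92% for the NRF1 core and 8.82% for the E-box. By subunit the ETS core was in 39.0% of 41 large subunit and 46.2% of 26 small subunit promoters. The median log2 change was -0.02 in the 29 members with the ETS core and 0.01 in the 39 without it, and -0.02 in the 19 with the YY1 core and -0.004 in the 49 without it. It was 0.04 in the 8 members with the NRF1 core and -0.02 in the 60 without it. The 6 with the E-box and the 62 without it each had a median of -0.01. Of the 6 called members with a promoter entry, 4 held the ETS core, 1 the NRF1 core and 0 the YY1 core or the E-box. A link between any motif and the calls was not tested.

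Some mitoribosomal transcripts passed the test between silenced and control arrays, and 1 of them, MRPL33, stood far from the rest. MRPL33, MRPL30, MRPL3, MRPS25, MRPS26 and MRPS6 rose and MRPL2 fell (limma, adjusted p under 0.05 over all genes). MRPL33 was 2.39-fold higher, while the changes of the other 6 were between 1.17-fold and 1.26-fold in size. In all 7 of the 75 members were called, or 9.33%, against 13.3% of all genes tested. By direction 6 were higher, against a background of 7.14% of genes, and 1 was lower, against a background of 6.19%. The difference between these shares was not tested, and so few calls do not show that the family changed less than other genes. At an unadjusted p under 0.05 there were 16 members, or 21.3%, against 24.6% of all genes.

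The other 68 members did not pass the test, which does not show that they were unchanged. In simulated data with the spread of these genes, 100 genes changed by 0.3 and 100 by 1 in log2 terms. Of these, 32% and 95% were called with the right sign, so changes near 0.3 were mostly missed there. Fewer genes changed in the simulation than were called here, which makes its threshold stricter. Most intervals of the members were narrow. In 74 of 75 members the 95% interval of the log2 change lay inside a 1.5-fold change in either direction, MRPL33 being the exception, and the same was true of 94.4% of all genes. The median log2 change was -0.02 over the 75 members and -0.006 over all genes. The changes had quartiles of -0.11 and 0.08 in the members, against -0.08 and 0.08 over all genes. In 27 members all silenced arrays lay on one side of all control arrays, above them in 16 and below them in 11, which is 36.0% against a background of 29.3% of all genes (15.0% above and 14.4% below).

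**Figure D1:**
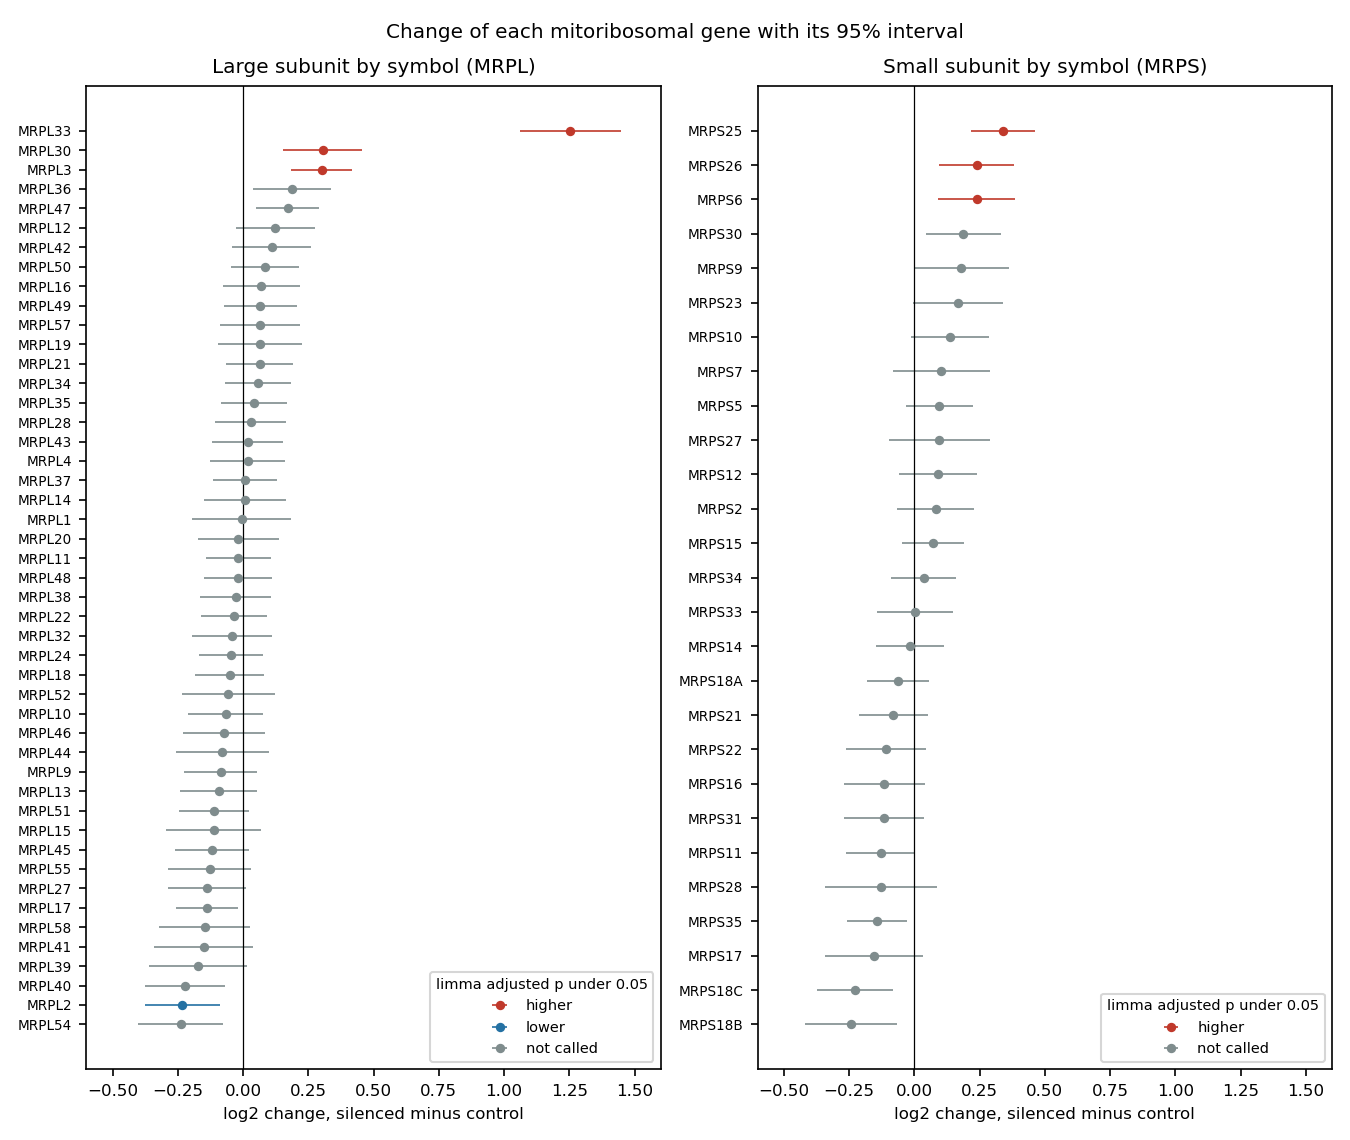
Log2 change (silenced minus control, x axis) of each large subunit gene (left) and small subunit gene (right) by symbol, points with 95% limma intervals, coloured by the call. MRPL33 lies at 1.25, and every other member lies between -0.24 and 0.34.

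Among large subunit proteins, MRPL33, the counterpart of a small bacterial large subunit protein, had values of -0.03, 0.04 and 0.18 in the silenced arrays, against -1.36, -1.12 and -1.09 in the control arrays. The groups were separated by more than 1 log2 unit. The mean was 0.06 ± 0.11 in silenced and -1.19 ± 0.15 in control cells (SD, n = 3 each), a log2 change of 1.25 (SE 0.086, 95% interval 1.06 to 1.45, limma adjusted p = 3.3e-05). It ranked 28th among the rises of all genes. The exact permutation p over the 6 arrays was 0.1, the smallest that 3 against 3 allows. All 3 of its probe sets passed over all probe sets, with log2 changes of 1.36, 1.22 and 1.19. 2 of the 3 have the suffix _x_at as in KCNN4, and the remaining one (suffix _a_at) gave 1.36.

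MRPL30 had values of 0.30, 0.19 and 0.29 in the silenced arrays, against -0.15, 0.03 and -0.01 in the control arrays. It encodes the counterpart of a bacterial large subunit protein. Its log2 change was 0.30 (SE 0.066, limma adjusted p = 0.0159), and 2 of its 3 probe sets passed on their own. That call was lost without silenced replicate 1 (adjusted p = 0.0561), without silenced replicate 3 (adjusted p = 0.0679), with the most variable probe set (adjusted p = 0.164) and with the plain _at probe set alone (adjusted p = 0.225). MITD1, a gene for a protein of the last step of cell division, lies 126 bases from MRPL30 on chromosome 2 in RefSeq, and its transcript moved the opposite way. MITD1 had -0.20, -0.32 and -0.10 in the silenced arrays, against 0.06, 0.00 and 0.20 in the control arrays, without overlap. It fell by 0.30 in log2 terms (SE 0.077; limma, adjusted p = 0.0362). MITD1 was read by 1 probe set, which did not pass over all probe sets (limma adjusted p = 0.0604).

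MRPL3, the counterpart of a bacterial protein that reaches towards the site of peptide bond formation, had the smallest standard error of the called large subunit members. It had 0.13, 0.12 and 0.19 in the silenced arrays, against -0.17, -0.15 and -0.15 in the control arrays. The 6 values formed separate groups, and the log2 change was 0.30 (SE 0.052, limma adjusted p = 0.00481). Both probe sets passed, with changes of 0.33 and 0.28.

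MRPL2, whose bacterial counterpart lies near the catalytic centre, was the only called member that fell. Its values were 0.00, -0.16 and 0.03 in the silenced arrays, against 0.18, 0.18 and 0.21 in the control arrays. The control arrays lay within a narrow band above all silenced arrays, and the log2 change was -0.23 (SE 0.063, limma adjusted p = 0.0409). Neither of its 2 probe sets passed alone, with changes of -0.33 and -0.14. The call was lost without any 1 of the 6 arrays (adjusted p between 0.0621 and 0.124).

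Among small subunit proteins, MRPS25, which has no bacterial counterpart, rose. It had 0.21, 0.15 and 0.14 in the silenced arrays, against -0.18, -0.13 and -0.21 in the control arrays. The groups did not overlap, and the log2 change was 0.34 (SE 0.054, limma adjusted p = 0.00338). Of its 5 probe sets 4 passed, and the changes of the 5 were between 0.19 and 0.45. It was called in each of 13 alternative settings.

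MRPS26, also without a bacterial counterpart, had 0.20, 0.27 and 0.25 in the silenced arrays, against -0.10, 0.09 and 0.00 in the control arrays. Its log2 change was 0.24 (SE 0.063, limma adjusted p = 0.0372). The call was lost without silenced replicates 1, 2 or 3 and without control replicates 1 or 3, with adjusted p between 0.0644 and 0.122. MRPS6, a counterpart of a bacterial protein of the small subunit platform, had 0.20, 0.14 and 0.29 in the silenced arrays, against -0.12, 0.00 and 0.03 in the control arrays. Its log2 change was 0.24 (SE 0.065, limma adjusted p = 0.0417), and the call was lost without any 1 of the 6 arrays (adjusted p between 0.0516 and 0.161). Each of these genes was read by 1 probe set, which did not pass over all probe sets.

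MRPS6 shares its annotated start on chromosome 21 with SLC5A3, which encodes a sodium-coupled transporter of myo-inositol and overlaps it in RefSeq. SLC5A3 had 0.04, 0.06 and -0.27 in the silenced arrays, against -0.46, -0.85 and -0.52 in the control arrays. It rose by 0.56 (SE 0.120, limma adjusted p = 0.0154). Whether the probe set of either gene also reads transcripts of the other was not tested. KLC4 overlaps MRPL2 and NR2C2 overlaps MRPS25 in RefSeq, while CUL7 lies within 1000 bases of MRPL2 and GNRH2 of MRPS26. These neighbours did not pass, with log2 changes of -0.06 in KLC4, 0.18 in NR2C2, -0.20 in CUL7 and -0.04 in GNRH2. Whether probe sets of the overlapping genes read each other's transcripts was not tested here either.

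**Figure D2:**
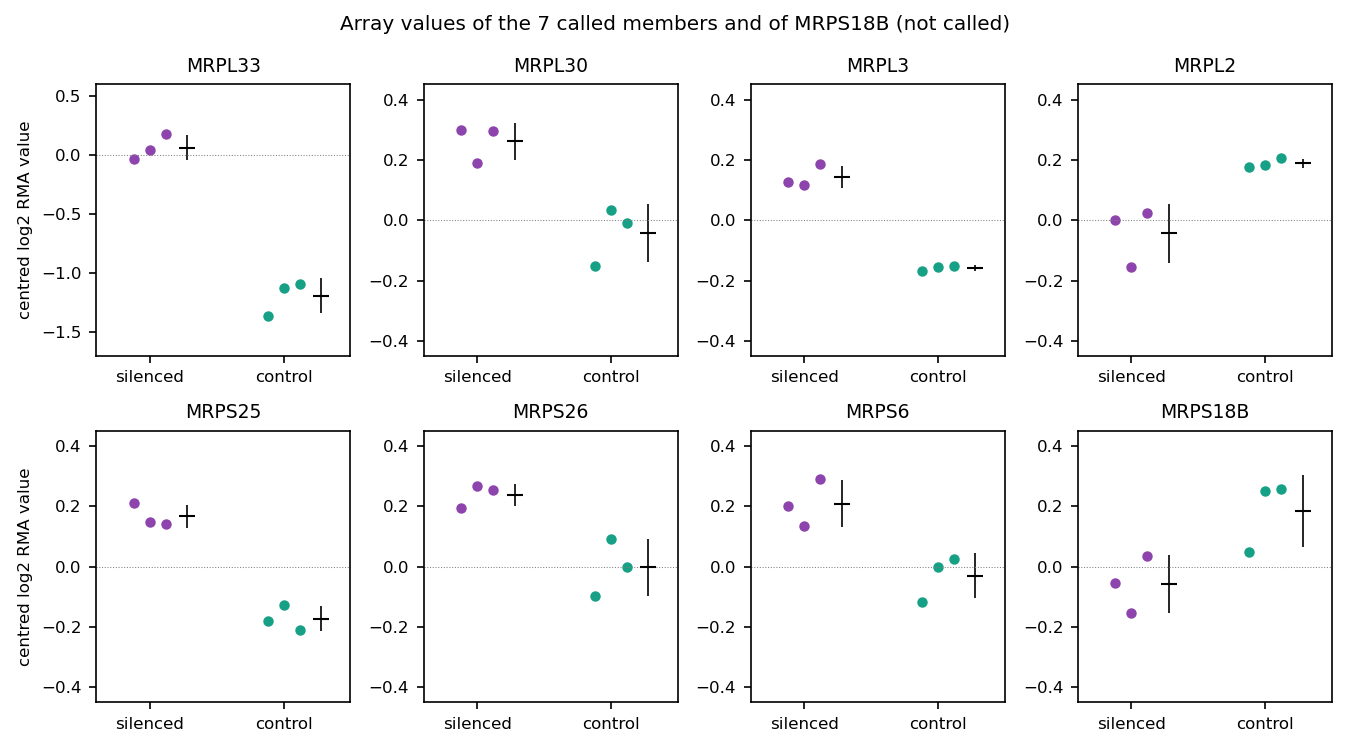
Centred log2 RMA values (y axis) of the 7 called members and of MRPS18B, which was not called, in the 3 silenced (left) and 3 control arrays (right), with mean and SD as bar and whisker. The scale of MRPL33 is wider than that of the other panels, and the groups do not overlap in any panel.

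The next positive changes of the large subunit, in MRPL36, MRPL47 and MRPL12, did not pass. MRPL47 had 0.16, 0.15 and 0.17 in the silenced arrays, against 0.00, -0.06 and 0.02 in the control arrays, and its change of 0.17 missed the threshold (limma adjusted p = 0.0685). MRPL36 had a log2 change of 0.19 (limma adjusted p = 0.105). MRPL12, which forms the flexible stalk that recruits translation factors, had a change of 0.12 (limma adjusted p = 0.308), while MRPL10, which anchors that stalk, had -0.07 (limma adjusted p = 0.607). The difference between these stalk proteins was not tested.

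The largest negative changes of the large subunit beside MRPL2 were -0.24 in MRPL54, -0.22 in MRPL40, -0.17 in MRPL39, -0.15 in MRPL41 and -0.15 in MRPL58. All of them lack a bacterial ribosomal counterpart, and MRPL58 is a release factor-like protein that frees stalled chains. MRPL54 had 0.00, -0.08 and -0.08 in the silenced arrays, against 0.05, 0.22 and 0.29 in the control arrays. It did not pass (limma adjusted p = 0.0625), nor did MRPL40 (limma adjusted p = 0.0637). In both genes the groups did not overlap, and control replicate 1 lay nearest to the silenced arrays.

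In the small subunit list, MRPS30 had a log2 change of 0.19 (limma adjusted p = 0.09), MRPS9 of 0.18 (limma adjusted p = 0.204) and MRPS23 of 0.17 (limma adjusted p = 0.219). MRPS30, a large subunit resident, had 0.10, 0.09 and 0.15 in the silenced arrays, against -0.18, -0.04 and 0.00 in the control arrays, without overlap. At the other end MRPS17 had a change of -0.15, MRPS35 of -0.14, and MRPS28 and MRPS11 of -0.13 each, none of which passed.

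The 3 MRPS18 paralogs, each related to the same bacterial protein but built into different places of the mitoribosome, all had negative changes and none passed. MRPS18B had -0.05, -0.15 and 0.04 in the silenced arrays, against 0.05, 0.25 and 0.26 in the control arrays, a log2 change of -0.24 (SE 0.077, limma adjusted p = 0.0772). MRPS18C, a small subunit protein, had -0.02, -0.05 and 0.02 in the silenced arrays, against 0.09, 0.26 and 0.27 in the control arrays, a change of -0.23 (SE 0.064, limma adjusted p = 0.0503). MRPS18A, the large subunit paralog, had a change of -0.06 (limma adjusted p = 0.546), with an interval of -0.18 to 0.05. The difference between paralogs was not tested. MRPL20-AS1, the antisense RNA symbol, had a change of -0.02 (limma adjusted p = 0.923), beside -0.02 for MRPL20.

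Called genes were found in both subunits. In the large subunit 3 of 47 genes rose, 1 fell and 43 missed the threshold, a share of 8.51% called. In the small subunit 3 of 27 genes rose, 0 fell and 24 missed the threshold, a share of 11.1% called. The share called over all genes was 13.3%, and the difference from it was not tested in either subunit. An unadjusted p under 0.05 (limma) was found in 9 large subunit genes (19.1%) and 7 small subunit genes (25.9%), against 24.6% of all genes. The groups did not overlap in 29.8% of large and 48.1% of small subunit genes (8 above and 5 below), against 29.3% of all genes. The median absolute log2 change was 0.07 in the large and 0.12 in the small subunit, against 0.08 over all genes. The median log2 change was -0.02 in the large subunit and 0.04 in the small subunit, against -0.006 over all genes, and 27 of 47 large subunit changes were negative, against 12 of 27 in the small subunit. These medians lie near 0, and leaving out single arrays moved them. Each move was smaller than the SD of the array medians within a label (0.0317 in the large and 0.0558 in the small subunit). The large subunit median was -0.0112 when silenced replicate 2 was left out and -0.0332 when silenced replicate 3 was. It was -0.0512 when control replicate 1 was left out and -0.0045 when control replicate 2 was. The small subunit median was 0.0129 without control replicate 1 and 0.0663 without control replicate 2. The median over large subunit genes was 0.02, -0.01 and 0.04 in the silenced arrays, against -0.003, 0.07 and 0.05 in the control arrays. The median over small subunit genes was 0.06, 0.00 and 0.10 in the silenced arrays, against -0.03, 0.09 and 0.05 in the control arrays. In each subunit these medians overlapped between the labels, and the difference between the subunits was not tested. Counting MRPS30 and MRPS18A with the large subunit left both medians and all counts of called genes as they were.

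Grouped by origin, the 44 members with a bacterial ribosomal counterpart had a median change of 0.002, with 4 higher and 1 lower (11.4% called). The 28 without one had a median of -0.02, with 2 higher and 0 lower (7.14% called). The share called over all genes was 13.3%. Of these 28, 6 had an unadjusted p under 0.05 (limma), or 21.4%, against 24.6% of all genes. Within the large subunit, taken by structure, all 4 called genes have a bacterial counterpart. They are 13.8% of the 29 genes with one, near the 13.3% of all genes. Of its 19 proteins without a counterpart, 0 were called by limma and 3 had an unadjusted p under 0.05 (15.8%, against 24.6% of all genes). Their median change was -0.06, against -0.004 in the 29 with one. The small subunit, taken by structure, went the other way, with 2 of 9 called without a counterpart (22.2%), against 1 of 15 with one (6.67%). These counts are small, and the calls of MRPL2, MRPS26 and MRPS6 were lost in most alternative settings. No difference by origin was tested.

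In these genes 1 array of each label tended to lie below the others. Control replicate 1 was the lowest of the 3 control arrays in 59 of the 75 members, or 78.7%, against 35.6% of all genes. Silenced replicate 2 was the lowest of the 3 silenced arrays in 46 of the 75 members, or 61.3%, against 33.0% of all genes. The median over the members was 0.03, -0.004 and 0.05 in the silenced arrays, against -0.01, 0.08 and 0.05 in the control arrays. Without control replicate 1 the count of lower members was 5 in place of 1, namely MRPL40, MRPL54, MRPS17, MRPS18B and MRPS18C, and the count of higher members was 4, namely MRPL33, MRPL30, MRPL3 and MRPS25. Without any 1 of the other 5 arrays 0 members were lower and 3 to 5 were higher, with 3 higher without silenced replicate 1 and without silenced replicate 3. What sets these arrays apart was not tested.

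Probe sets of one gene did not always point the same way. Of the 47 members with several probe sets, 18 held changes of opposite sign, and the median spread between the lowest and highest probe set of a gene was 0.11 on the log2 scale. Tested one by one, 11 of the 166 member probe sets passed, all of them higher (6.63%, against 11.0% of all probe sets with 1 symbol). They belong to MRPL33, MRPL30, MRPL3 and MRPS25. The widest spreads were in MRPS11, with changes between -0.22 and 0.11 over 6 probe sets, and in MRPL4, between -0.12 and 0.21 over 4.

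Other nuclear genes of mitochondrial gene expression were followed in 6 lists of 98 genes, of which 92 were measured. The lists rest on general knowledge of the pathway, but they were chosen with earlier results of these data known. In these lists 7 genes rose and 1 fell, or 8.7% of those measured. Of all genes 13.3% were called (7.14% higher and 6.19% lower). Mitoribosomal proteins under other symbols gave 1 higher of 4 measured, PTCD3, a small subunit protein with RNA-binding repeats. PTCD3 had 0.13, 0.09 and 0.03 in the silenced arrays, against -0.14, -0.23 and -0.25 in the control arrays, a change of 0.29 (SE 0.058, limma adjusted p = 0.0105). With plain _at probe sets alone the change was 0.23 and did not pass (limma adjusted p = 0.0896). DAP3, CHCHD1 and GADD45GIP1 did not pass, with changes of 0.02, -0.07 and -0.19.

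Mitoribosome assembly and ribosomal RNA modification gave 1 rise and 1 fall among 27 measured genes (7.41% called, against 13.3% of all genes). The other 25 missed the threshold, and the median change was 0.002. The higher one was RPUSD4, which encodes a pseudouridine synthase that modifies the large mitochondrial ribosomal RNA. RPUSD4 had 0.13, 0.18 and 0.16 in the silenced arrays, against -1.50, -1.51 and -1.59 in the control arrays. The log2 change was 1.69 (3.23-fold, SE 0.054; limma, adjusted p = 5.3e-07), and its 3 probe sets gave 1.79, 1.52 and 1.76. YBEY, the other called gene of this list, fell by 0.29 (SE 0.070, limma adjusted p = 0.0257). Its plain _at probe sets alone gave 0.01, and the call was lost without any 1 array other than control replicate 1 (adjusted p between 0.0711 and 0.0797).

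**Figure D3:**
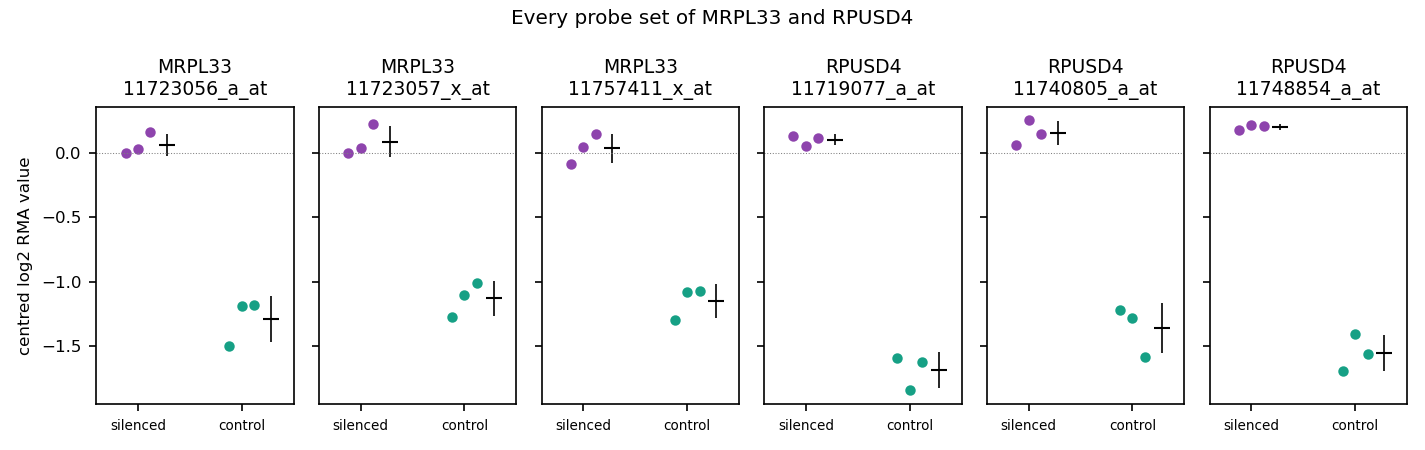
Centred log2 RMA values (y axis) of each probe set of MRPL33 and RPUSD4 in the 3 silenced (left) and 3 control arrays (right), with mean and SD as bar and whisker. In every probe set all 3 control arrays lie below -1, and all silenced arrays lie near 0.

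Mitochondrial translation factors gave 2 rises and 0 falls among 16 measured genes (12.5% called, against 13.3% of all genes). Their median change was 0.10. An unadjusted p under 0.05 (limma) was found in 6 of the 16 (37.5%), against 24.6% of all genes. TSFM, the exchange factor of the mitochondrial elongation factor Tu, rose by 0.44 (SE 0.065, limma adjusted p = 0.00231). Its 2 probe sets disagreed, with changes of 0.88 and -0.01. MTRES1, which acts on stalled mitoribosomes, rose by 0.26 (SE 0.068, limma adjusted p = 0.0372). That call depended on each array but control replicate 3, with adjusted p between 0.0633 and 0.129 when 1 of the others was left out. Of 19 measured mitochondrial aminoacyl-tRNA synthetases, which load the organelle's tRNAs, 0 were called, against 13.3% of all genes. An unadjusted p under 0.05 (limma) was found in 3 of them (15.8%), against 24.6% of all genes. The median change of the synthetases was 0.04.

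Mitochondrial DNA expression and maintenance gave 2 rises and 0 falls among 18 measured genes (11.1% called, against 13.3% of all genes). The median change was 0.02. TRMT10C, a subunit of the enzyme that frees tRNAs from the mitochondrial transcript, rose by 0.30 (SE 0.080, limma adjusted p = 0.0403), and POLG2, the accessory subunit of the mitochondrial DNA polymerase, rose by 0.23 (SE 0.057, limma adjusted p = 0.0298). The call of TRMT10C was lost without silenced replicates 1 or 2 and without control replicates 2 or 3 (adjusted p between 0.0688 and 0.126), and that of POLG2 without any 1 array other than control replicate 2 (adjusted p between 0.0649 and 0.117). Of 8 nuclear regulators 1 was higher and 7 did not pass (12.5% called, against 13.3% of all genes). PPARGC1A, the coactivator PGC-1alpha that drives mitochondrial biogenesis in several tissues, had 0.00, 0.05 and -0.05 in the silenced arrays, against -0.54, -0.65 and -0.51 in the control arrays. The groups lay apart, with a log2 change of 0.57 (1.48-fold, SE 0.061; limma, adjusted p = 0.000393). Its 4 probe sets differed in size, with changes of 0.84, 0.83, 0.37 and 0.24. The last of them did not pass over all probe sets (limma adjusted p = 0.184). NRF1, GABPA and ESRRA, factors known to act on promoters of mitochondrial genes, did not pass, with changes of 0.01, -0.02 and 0.14.

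**Figure D4:**
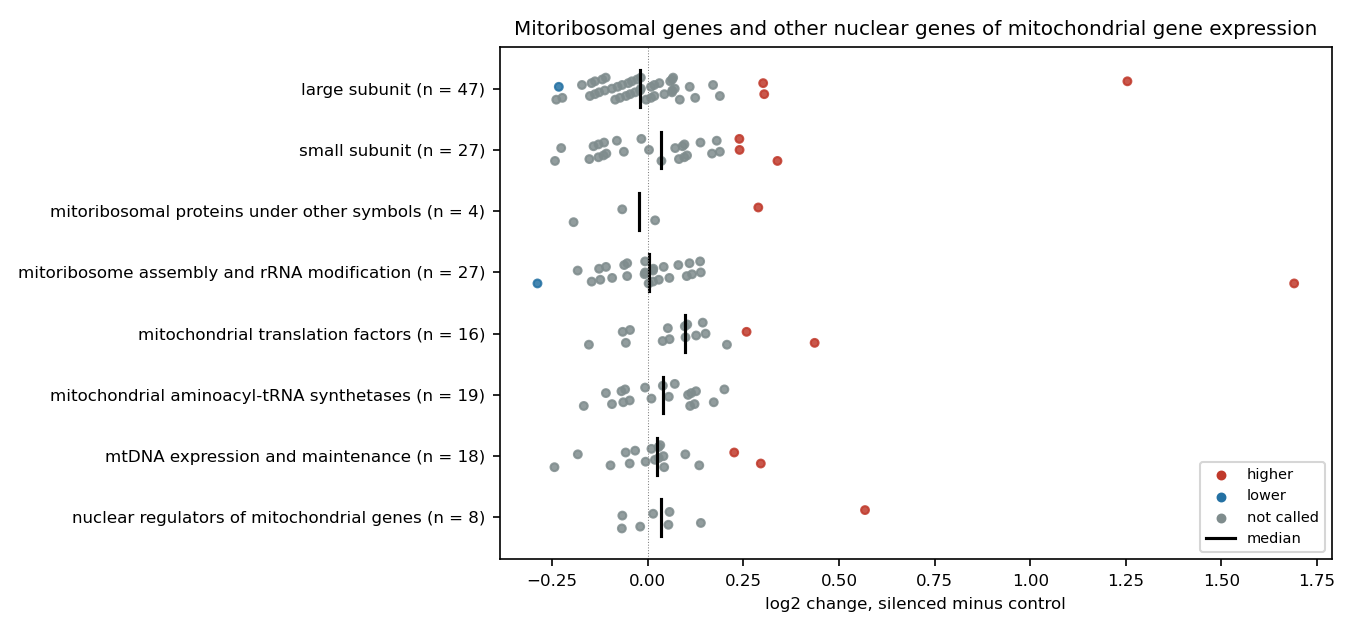
Log2 change (silenced minus control, x axis) of every measured gene of the large and small subunit and of the 6 other lists (1 row each), coloured by the call, with the median of each row as a black bar. RPUSD4 at 1.69 and MRPL33 at 1.25 lie far to the right, and all row medians lie between -0.02 and 0.10.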

How the data were processed

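Transcripts were measured on 6 one-colour Affymetrix arrays, 3 per group. The deposited log2 values were made with RMA, per the submitters' processing notes. The RMA version and the log base are not given in the sources used here, and log2 is RMA's usual output. That each probe set was centred, on an unstated baseline, was read from the values: every array has a median of 0, and 80.6% of probe sets hold an exact 0. Centring cancels in a difference but removes levels. The number of arrays limits the precision.

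Of 49395 probe sets 102 controls were left out. Of the rest 44988 carried 1 symbol, 1832 several and 2473 none, by the platform annotation. Probe sets with 1 symbol were averaged per gene and fitted with limma 3.58.1 in R 4.3.3 (lmFit, eBayes, group only), with Benjamini-Hochberg adjustment over all genes and a threshold of 0.05. The members, lists and motifs were chosen with earlier results of these data known.

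Genes were named by a rule: KCNN4, every called member, in each subunit the 6 largest changes each way, members of special place (MRPS30, the MRPS18 paralogs, MRPL10, MRPL12, MRPL20-AS1), and the called genes of each list, at most 3. MRPL20, MRPL4, the neighbouring genes, DAP3, CHCHD1, GADD45GIP1, NRF1, GABPA and ESRRA were added after their values were seen. Alternatives were the most variable probe set, plain _at probe sets alone, a repeated quantile normalisation, a filter on the least variable genes, a replicate block, robust eBayes, subunits by structure and leaving out each array. Leaving out _s_at and _x_at probe sets was added after seeing the data. The scripts were tested on simulated data.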

Additional observations from a re-analysis of the deposited data

How the results depend on the processing

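Of the 6 rises, MRPL33, MRPL3 and MRPS25 were called under every alternative that measured them (12 of 12, 12 of 12 and 13 of 13), MRPL30 under 9 of 13, MRPS26 under 5 of 12 and MRPS6 under 1 of 12. The fall of MRPL2 held under 1 of 12. The count of higher members was 6 as reported. It was 3 with the most variable probe set (1 in the small subunit). With plain _at probe sets it was 1 (0 in the large and 1 in the small subunit). That setting kept 32 members and did not measure MRPL33, MRPL3, MRPL2, MRPS26 or MRPS6, so none of these could be called there. Of the called members it measured MRPS25, which passed, and MRPL30, which did not. The count of lower members, 1 as reported, was 0 in all and 0 in the large subunit with the most variable probe set, plain _at probe sets, repeated quantile normalisation, the filter on flat genes, the replicate block, and without _s_at and _x_at probe sets. Robust eBayes and subunits by structure left the counts as reported. With plain _at probe sets the small subunit median was -0.0993, against 0.0357 as reported, and 565 genes were called, against 2418. With the filter on flat genes the large subunit median was -0.0669, against -0.0201. Leaving out each array gave 3 to 5 higher members and 0 to 5 lower members, with 2 to 3 higher and 0 to 2 lower in the large subunit and 1 to 2 higher and 0 to 3 lower in the small subunit, and 1641 to 2289 genes called. Apart from members that a setting did not measure, the cause of these moves was not tested.

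KCNN4, at -0.0003, had the other sign with the most variable probe set (0.021) and repeated quantile normalisation (0.0042), and lay between -0.0445 and 0.0548 when each array was left out. MRPL20-AS1 lay between -0.0472 and 0.0411 when each array was left out and was -0.061 with the most variable probe set, and YBEY was 0.0122 with plain _at probe sets. None of these values passed the test. With replicate number as a block, 4 members were higher and 0 lower, with 1 higher in the small subunit, and 2065 genes were called. Same-numbered arrays did not deviate together (residual r of -0.096, -0.069 and -0.04), so these values show no pairing by number. They cannot exclude one, because deviations from the mean of so few arrays cancel within each label. Each array deviated most alike with an array of another number. The r was 0.381 for silenced 1 and control 3, 0.373 for silenced 2 and control 1, and 0.381 for silenced 3 and control 2. The same cancelling gives every array some partner with a positive r, so a best match for each array is no finding in itself.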
